A study of Mus musculus with 6 samples.

Results

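Nephron progenitor regulators are the genes that keep the cap mesenchyme, the cells that surround the tips of the ureteric bud in the growing kidney, in a self-renewing state. Here 9 such genes, Six2, Cited1, Eya1, Osr1, Sall1, Meox1, Crym, Wt1 and Itga8, were followed in cells sorted from newborn mouse kidneys for descent from the ureteric bud, a separate lineage. They were found on the array as all probes, control spots aside, whose RefSeq accession belongs to one of these symbols. This gave 10 probes of the 55681 on the array, 2 of them for Six2 and 1 for each other gene, out of 20887 genes that could be named. All 10 probes passed the filter on dim probes.

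The 6 arrays held RNA of 3 WT and 3 MUT pools of sorted cells, from C57BL/6 mice on postnatal day 1. All mice carried Hoxb7cre and the R26RtdTomato reporter and had been salt-stressed, and cells positive for both GFP and tdTomato were sorted. WT pools came from Bdkrb2+/+ kidneys and MUT pools from Bdkrb2f/f kidneys, in which the bradykinin B2 receptor gene is deleted where the Hoxb7 driver is active. How many mice went into each pool was not stated in the labels. Bdkrb2 itself had 1 probe, which in Cy5 was well above background on 0 of the 6 arrays, so it does not check the labels. Each pool was labelled in Cy5 and hybridised with RNA of WT pool 1 in Cy3, so every value is a log2 ratio to WT pool 1, and the array of WT pool 1 set that RNA against itself. The comparison asks which genes change when the receptor is lost in the ureteric lineage. The p-values of the fit as reported measure the spread between pools, which the labels call biological replicates.

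In the embryonic and newborn kidney, Six2-positive cap cells either renew or become nephrons, and the supply is used up soon after birth. The ureteric bud signals to them with Wnt9b, and they return Gdnf, which activates Ret on the bud. Transcription factors such as Six2, Osr1, Sall1, Eya1 and Wt1 hold the progenitor state, and Wnt4 is switched on as cells leave it. Mature collecting duct cells, which come from the bud, are not known for these progenitor genes.

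All 9 genes lay higher in every MUT pool than in every WT pool, and 8 of the 9 rose in the fit across the whole array (limma, adjusted p under 0.05). Over the array 14.0% of 14586 tested genes were called higher in MUT pools, 18.8% lower and 32.8% either way. By probe these shares were 11.6% higher, 14.6% lower and 26.1% either way. All MUT pools lay above all WT pools at 24.2% of genes and below them at 28.3%. The median change of the 9 genes was 2.13 on the log2 scale, beside a median of -0.02 over all tested genes. Wt1, Six2, Crym, Itga8 and Cited1 rose more than 4-fold, from 4.37-fold to 6.12-fold. Meox1, Osr1 and Sall1 rose 2.98-fold, 2.62-fold and 1.93-fold, and Eya1 was not called. A change in a sorted bulk sample cannot tell more cells of a type from more RNA per cell.

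**Figure D1:**
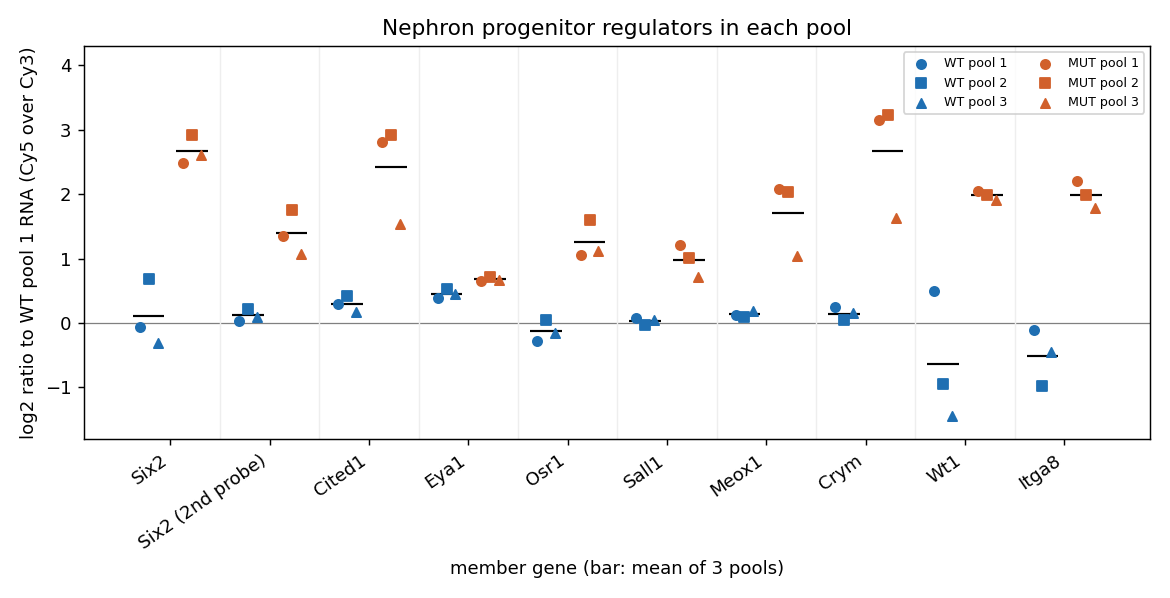
Log2 ratio of each pool to WT pool 1 RNA (y axis) at each of the 10 member probes (x axis), with blue symbols for WT pools, orange symbols for MUT pools and a bar at the mean of 3 pools. Orange lies above blue at every probe, with the narrowest gap at Eya1 and a lower MUT pool 3 at Cited1, Meox1 and Crym.

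Promoter sequence was held for 4 of the 9 genes in the RefSeq table of GRCm38.p6, namely Six2, Cited1, Sall1 and Itga8, with 8 start sites in all. The 3 shown belong to genes that rose more than 4-fold, and each gives the 250 bases before a start site, on the minus strand, 5′ to 3′. Capitals mark matches, on either strand, to a TATA box (TATAAA), a GC box (GGGCGG) or a CCAAT box (CCAAT), the motifs found in them among 6 searched.

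Six2, chr17:85688255-85688504, minus strand: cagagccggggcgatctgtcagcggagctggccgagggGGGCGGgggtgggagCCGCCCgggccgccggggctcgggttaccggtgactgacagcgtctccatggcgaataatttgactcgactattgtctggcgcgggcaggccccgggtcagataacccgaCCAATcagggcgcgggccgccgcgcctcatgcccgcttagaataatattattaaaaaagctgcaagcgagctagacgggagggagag

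Cited1, chrX:102252182-102252431, minus strand: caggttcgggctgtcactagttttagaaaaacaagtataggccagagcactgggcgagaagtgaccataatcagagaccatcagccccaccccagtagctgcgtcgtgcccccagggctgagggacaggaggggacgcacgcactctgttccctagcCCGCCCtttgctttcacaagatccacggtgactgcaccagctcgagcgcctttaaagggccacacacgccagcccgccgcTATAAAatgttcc

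Itga8, chr2:12301945-12302194, minus strand: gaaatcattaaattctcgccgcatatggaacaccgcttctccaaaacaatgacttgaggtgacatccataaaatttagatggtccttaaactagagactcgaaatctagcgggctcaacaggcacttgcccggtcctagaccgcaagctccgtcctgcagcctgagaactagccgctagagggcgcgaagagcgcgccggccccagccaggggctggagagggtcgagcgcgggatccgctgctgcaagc

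The Six2 promoter held 2 GC boxes and 1 CCAAT box and no TATA box, at a GC content of 64.8%. The Cited1 promoter shown, the most upstream of its 3 start sites, held a TATA box from -13 to -8 and 1 GC box. Itga8 held none of the motifs. Over all 32851 promoters of this length, 12.4% held a TATA box, 32.7% a GC box and 33.8% a CCAAT box. The motif of Six2-related homeodomain proteins (TCAGGTTTC, in 0.387% of promoters) and that of TCF/LEF factors (CTTTGAT, in 3.21%) were in none of the 8 member promoters. A WT1 motif (GCGTGGG, in 4.3%) was in 1, at a start site of Sall1. These are matches of letters only.

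Six2 is the homeodomain factor that holds cap cells back from becoming nephrons. At its brighter probe (A_55_P2033308) the log2 ratios from pool 1 to pool 3 were -0.06, 0.68 and -0.32 for WT, while those for MUT were 2.48, 2.92 and 2.60. By ratio the MUT pools lay close together, and all were above the WT pools. Six2 rose by a log2 of 2.56 ± 0.25 (SE, n = 3 pools per group, limma adjusted p = 0.000548), and ranked 18 among tested genes by rise. At the other probe (A_51_P354224) the WT ratios were 0.04, 0.22 and 0.10, and the MUT ratios 1.35, 1.75 and 1.07. In Cy5 this probe was not well above background in any of the 3 WT pools. The fit gave it a ratio change of 1.27, or 2.42-fold (adjusted p = 0.00182), which the lack of a measured WT level and the Cy3 signal described next both touch. In Cy5 signals normalized together with Cy3, its mean in MUT pools was at least 5.68-fold above the detection bound of the WT arrays. That bound takes means of normalized log2 Cy5 signals and carries no test of its own. Both sides of it are Cy5 signals, and no dyes were swapped. The normalization uses both channels, so the Cy3 signal enters the bound too. The sizes of change at the 2 probes were not compared, because the dimmer one has only a bound in WT pools.

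The Cy3 channel held the same WT pool 1 RNA on all 6 arrays, and at Six2 it did not give the same signal. The raw median Cy3 signal of the brighter probe was 149, 151 and 191 on the WT arrays, in the order of the pools, and 1385.5, 781 and 420 on the MUT arrays. Its Cy5 signal was 422.5, 489 and 250.5 on the WT arrays and 21842.5, 17774 and 8118 on the MUT arrays. Both channels were thus highest on the array of MUT pool 1 and, among MUT arrays, lowest on that of MUT pool 3. After quantile normalization Cy3 was 1.86 higher on the log2 scale on MUT arrays, and its SD over the 6 arrays, 1.07, ranked 13 among 29003 tested probes, whose median SD was 0.09. At the other Six2 probe Cy3 was 0.96 higher, with an SD of 0.61. At the other 8 members this difference ran from -0.31 at Wt1 to 0.26 at Cited1.

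In all, 9 tested probes (0.0311%) had Cy3 more than 1 higher on MUT arrays, and 1 of the 90 probes called higher by more than 2 was among them, that of Six2. The ratio divides by this Cy3 signal. With the Cy5 channel alone Six2 was 4.74 higher in MUT pools at the brighter probe. In that channel its MUT pools were less alike, at 5.20, 5.00 and 4.25 above WT pool 1. The size of the Six2 rise and the spread of its MUT pools therefore depended on whether the ratio or Cy5 alone was read, while it was a rise in both. What raised the Cy3 signal was not tested.

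**Figure D2:**
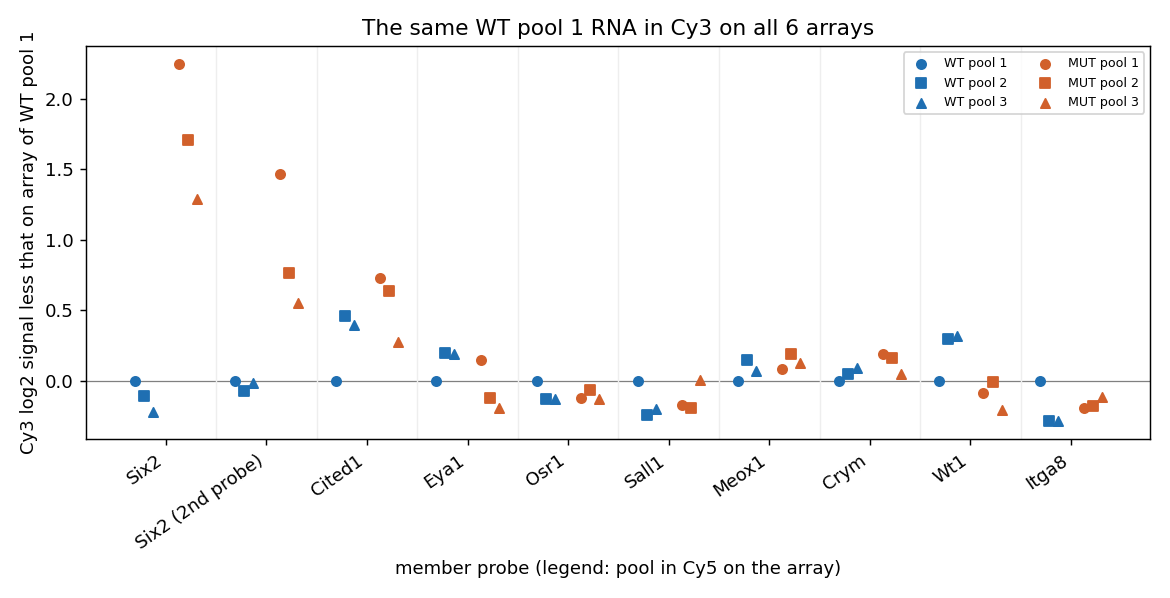
Normalized Cy3 log2 signal of each member probe on the 6 arrays, less that on the array of WT pool 1 (y axis), where the Cy3 RNA was WT pool 1 throughout and colours give the pool in Cy5. The Six2 probes stand apart, with the MUT arrays above the WT arrays, and of the other members Cited1 reaches highest.

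Cited1, a transcriptional coregulator of the least committed cap cells, had ratios of 0.29, 0.42 and 0.17 in WT pools and 2.81, 2.92 and 1.54 in MUT pools. It rose by 2.13 ± 0.33 (SE, adjusted p = 0.00328). Crym, which encodes mu-crystallin, a thyroid hormone binding protein found in cap cells, had 0.25, 0.04 and 0.15 in WT pools and 3.15, 3.23 and 1.63 in MUT pools. It rose by 2.53 ± 0.38 (SE, adjusted p = 0.00295). Meox1, a homeobox factor, had 0.12, 0.10 and 0.19 in WT pools and 2.08, 2.03 and 1.04 in MUT pools, a rise of 1.57 ± 0.26 (SE, adjusted p = 0.00404). For these 3 genes the WT pools lay close together, while MUT pool 3 stood below the other 2 MUT pools.

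MUT pool 3 was below the mean of MUT pools 1 and 2 by 1.32 at Cited1, 1.56 at Crym and 1.01 at Meox1 on the log2 scale. By ratio the same difference was -0.10 at Six2, -0.11 at Wt1, -0.21 at Osr1, -0.31 at Itga8 and -0.40 at Sall1. Over the 492 genes called higher by more than 1 its median was -0.15, and 5% of them fell under -0.80. In Cy5 alone, however, Six2 was 0.85 lower in MUT pool 3 and its other probe 1.10 lower, beside drops of 1.86 at Cited1, 1.71 at Crym and 1.04 at Meox1. Six2 is thus not shown to lack the drop, whereas Wt1, Itga8, Sall1 and Osr1 differed by -0.34 to -0.16 in that channel. The 3 genes with the deepest drop by ratio include the nearest pair by root mean square difference of the 6 ratios, Cited1 and Crym at 0.25. This is a description of 1 pool, without replicates of its own. Without MUT pool 3 the rises of Cited1, Crym and Meox1 were 2.57, 3.05 and 1.91.

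Osr1 and Sall1 are zinc finger factors that act early in the kidney lineage, Osr1 in the intermediate mesoderm and Sall1 in the cap. Osr1 had ratios of -0.27, 0.04 and -0.16 in WT pools and 1.06, 1.60 and 1.12 in MUT pools. It rose by 1.39 ± 0.16 (SE, adjusted p = 0.00107). Its raw Cy5 signal was 103 to 111 on WT arrays over a local background of 61 to 65, so the signal above background was no larger than the offset of 50 added in the background correction. With the scanner software's processed signals the rise was 2.67. Sall1 had 0.07, -0.03 and 0.05 in WT pools and 1.22, 1.01 and 0.71 in MUT pools, a rise of 0.95 ± 0.14 (SE, adjusted p = 0.00253).

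Eya1, a phosphatase and transcriptional partner of Six2 and its relatives, stood apart from the other 8. Its ratios were 0.39, 0.53 and 0.45 in WT pools and 0.65, 0.71 and 0.66 in MUT pools. The groups did not overlap, yet the difference was 0.22 ± 0.09 (SE), with a 95% interval from 0.00 to 0.44 and an adjusted p of 0.123 by limma. WT pool 1 against itself already read 0.39 at this probe, a value that holds no difference between pools. Eya1 was called only when each array was scaled to its 10 spike-in control probes, which moved the median of all genes to 0.93 and called 61.8% of them higher. Eya1 then stood at 1.17 (adjusted p = 0.0078), which is 0.24 above that median. That scaling subtracts the deviation of an array's spike-in probes from all of its genes alike. The deviation was 0.01 to 1.01 on WT arrays and -0.70 to -0.18 on MUT arrays, so WT ratios were lowered and MUT ratios raised. With this scaling the limma p-values followed the size of the change and not a gene's own spread between pools. Hoxd11 at 1.14 and the principal cell marker Avpr2 at -1.14 both had an adjusted p of 0.00895 there. This limit holds for every call with the spike-in controls, here and below.

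Wt1, a zinc finger factor of cap cells and podocytes, had ratios of 0.50, -0.95 and -1.45 in WT pools and 2.05, 1.99 and 1.91 in MUT pools. The MUT pools were nearly alike and the WT pools were the most spread of any member. Wt1 rose by 2.61 ± 0.43 (SE, adjusted p = 0.00395). Itga8, the integrin subunit on mesenchymal cells that binds nephronectin from the bud, had -0.10, -0.98 and -0.45 in WT pools and 2.20, 1.99 and 1.78 in MUT pools. It rose by 2.50 ± 0.22 (SE, adjusted p = 0.000448). These 2 genes were each other's nearest member (root mean square difference 0.48). In WT pools 2 and 3 they had the lowest ratios among the 9. In WT pool 1, however, Wt1 had the highest ratio of the 9 and Osr1 the lowest.

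WT pools 2 and 3 lay in another row of the slide than WT pool 1 and the 3 MUT pools. With a block for slide row, which rests on WT pool 1 alone as the WT sample of the shared row, Wt1 was higher by 1.49 and Itga8 by 2.09. All 9 genes stayed above 0 there, and 4 were called higher, Six2, Osr1, Wt1 and Itga8, where 3.43% of tested genes were. Cited1, Crym, Meox1 and Sall1 kept similar values, 2.13, 2.43, 1.59 and 0.90, but had adjusted p values from 0.0545 to 0.0621. Under the other alternatives and with any pool left out 8 were called higher, apart from the spike-in scaling, which gave 9. With median centring in place of loess 18.2% of genes were called higher, and the same number of members, 8.

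**Figure D3:**
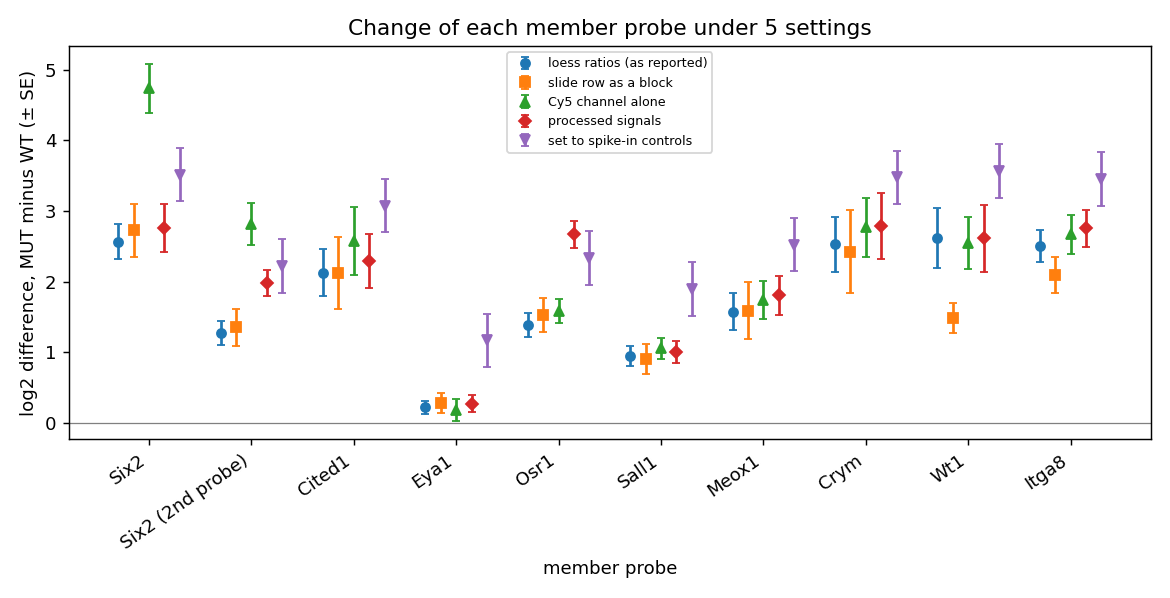
Log2 difference of MUT minus WT pools with its SE (y axis) at each member probe (x axis), as reported and under 4 other settings. Six2 moves most with the Cy5 channel alone, Osr1 with the processed signals, Wt1 with the block for slide row and Eya1 with the spike-in controls, and no value falls under 0.

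Relatives and binding partners of the members went both ways. Of 15 such genes 14 were tested, of which 6 rose, 3 fell and 5 were not called, with a median change of 0.24. Sall2, Eya2, Meox2 and Eya4 rose by 1.37 ± 0.11, 1.55 ± 0.17, 1.68 ± 0.20 and 1.69 ± 0.22 (SE), and Eya4 was well above background in 2 of 3 WT pools. Eya2 and Eya4 thus rose while Eya1, of the same phosphatase family, was not called, and Eya3 was at 0.22. The others not called were Six4 at -0.19, Cited2 at -0.48, Sall4 at 0.27 and Itgb1, the beta partner of Itga8, at 0.16. The 3 that fell, named after their values were seen, were Npnt, which encodes nephronectin, by 1.29, Cited4 by 1.14 and Sall3 by 0.57. With the spike-in controls Sall3 was at 0.38 and none of the 3 was called, and with a block for slide row Cited4 alone was.

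Of the genes that signal to or act with the progenitor state 18 were listed and all but Lin28b were tested. Of the 17 tested 11 rose, 3 fell and 3 were not called at their brightest probes, with a median of 1.18. Other probes of the risers did not all follow. Gas1 rose by 1.46, but its other probes were at 0.08 and 0.09 and not called. Ncam1 rose by 1.46, with other probes at 0.63, not called, and 0.56, called. Fgfr1 rose by 1.32, and its other probes were called at 0.88 and 1.13. Gdnf, the signal of the cap to the bud, rose by 3.98 ± 0.24, Tmem100 by 2.43 ± 0.17, Mycn, a Myc family transcription factor of cap cells, by 2.20 ± 0.17 and Uncx by 1.70 ± 0.12 (SE, each adjusted p = 0.000365). Tmem100 was well above background in 1 of 3 WT pools. Fgf20, a cap ligand, was below that level in all 3 WT pools at its brightest probe. Its mean there in MUT pools was at least 1.88-fold above the detection bound of the WT arrays. That bound has the limits given for the dimmer Six2 probe and carries no test. The other Fgf20 probe was called at a log2 of 0.59 (limma adjusted p = 0.0365). The 3 that fell, named after their values were seen, were Fgf9 by 1.71, Wnt9b by 0.97 and Bmp7 by 0.54. Wnt9b and Fgf9 are made by the ureteric epithelium and Bmp7 by both lineages. With the spike-in controls Bmp7 turned to 0.40 and none of the 3 was called, and with a block for slide row Fgf9 alone was. Hoxc11, Hoxd11 and Pax2, a factor shared by both lineages, were at 1.03, 0.19 and 0.29 and were not called at their brightest probes. The other Hoxd11 probe was called at 0.59 (adjusted p = 0.0088), and Hoxc11 was called with median centring at 1.39 (adjusted p = 0.0341). With the spike-in controls all 3 were called higher, as were 61.8% of all tested genes.

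Genes of committed nephron cells rose beside the progenitor genes, 7 of 9 tested, with none lower and a median of 0.91. Wnt4 rose by 2.13 ± 0.20, Dll1 by 1.43 ± 0.23, Lfng by 1.16 ± 0.17 and Cdh6 by 0.86 ± 0.16 (SE). Lhx1 and Pax8 were at 0.83 and 0.32 and were not called. With a block for slide row 2 of the 9, Wnt4 and Lfng, were called, while Dll1 at 1.23 (adjusted p = 0.0821) and Cdh6 at 0.50 (adjusted p = 0.114) were not. With median centring and with the spike-in controls all 9 were called higher, where 18.2% and 61.8% of all tested genes were. From MUT pool 1 to MUT pool 3 the list median was 0.58, 0.81 and 1.04. By median, pool 3 was thus the lowest of the MUT pools for the 9 regulators and the highest for this list. Single genes did not all follow. Six2, Osr1 and Eya1 were lowest in MUT pool 1 by ratio, Fgf8 and Dll1 were highest there, and Cdh6 was lowest in MUT pool 3. Whether the regulators and this list differ in their change was not tested.

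Of genes near Six2, the 5 with the smallest root mean square difference of the 6 ratios among 14585 others were Dkk1, Defb25, Mycn, Snap91 and Col2a1, from 0.26 to 0.33. Mycn also stands among the genes around the progenitor state above. Cited1 was the nearest of the 9 regulators to Six2, at 0.53. These distances use ratios, so the Cy3 signal of Six2 enters them.

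Markers of the sorted lineage and of other cells moved beside the 9 genes. All 8 ureteric lineage markers were well above background on all 6 arrays, Hoxb7 among them, and 7 of 8 fell (median -1.73), led by Mal at -2.49 and Tfcp2l1 at -2.11. Hoxb7 fell by 0.69, but was at 0.26 with the spike-in controls and not called with a block for slide row (-0.59, adjusted p = 0.0926). All 7 tested principal cell markers fell (median -1.90), led by Fxyd4 at -2.57 and Scnn1a at -2.27. With the spike-in controls 4 markers of each of these lists fell and 1 ureteric lineage marker rose. The summed normalized Cy5 signal of the ureteric lineage markers was 50601 to 57959 in WT pools and 15017 to 20795 in MUT pools. That of the principal cell markers was 34301 to 34861 in WT pools and 8078 to 10602 in MUT pools. That of the 9 regulators ran the other way, from 16403 to 21819 in WT pools and from 50790 to 77753 in MUT pools. Ureteric tip markers had no call among 8 tested, and Etv4 was at 0.54. With the spike-in controls 5 of them were called higher, where 61.8% of all tested genes were. With median centring Etv4 was called at 0.89 (limma adjusted p = 0.0212), where 18.2% of all tested genes were called higher.

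Renal stroma markers rose in 7 of 9 tested cases (median 2.06), led by Meis1 at 2.94 and Tcf21 at 2.46, and their summed signal was 5556 to 17744 in WT pools and 40139 to 43389 in MUT pools. With a block for slide row 4 were called, the list median was 1.12 and Tcf21 was at 1.71. The median ratio of the list was 0.12 in WT pool 1 and -1.41 in WT pool 3, with WT pool 2 between them, and the order of Wt1 over these pools was the same. Podocytes also express Wt1, and their markers had 1 of 9 tested higher and 1 lower, Cd2ap by 0.35. With the spike-in controls Cd2ap was at 0.60 and not called. There 6 podocyte markers were called higher, as were 61.8% of all tested genes. The pool medians of the podocyte markers were 0.13, -0.97 and -0.77 for WT and -0.01, -0.13 and -0.27 for MUT. Their summed signal was 9778 to 15916 in WT pools and 11152 to 15115 in MUT pools, so the groups overlapped. With a block for slide row 0 podocyte markers were called higher and Cd2ap was not called. Every tested podocyte marker was above background in some pools of each group. Leukocyte markers rose in 5 of 6 cases, led by Cx3cr1 at 1.36 and Adgre1 at 1.28, and 1, Ptprc, fell by 0.43 but was at 0.52 with the spike-in controls. Other probes of these markers were called for Cx3cr1 at 1.27 and Adgre1 at 0.90. Those of Cx3cr1 at 0.73 and of Csf1r, another of the risers, at 0.61 and 0.12 were not called. With a block for slide row 0 of 6 were called, with Cx3cr1 at 0.80 (adjusted p = 0.109) and Adgre1 at 0.87 (adjusted p = 0.14). Endothelial markers fell in 5 of 6 cases (median -0.91, but 0.03 with the spike-in controls), led by Kdr at -1.35, whose other probe at -0.62 was not called, and Robo4 at -1.04. Proximal tubule markers fell in 3 of 6 (median -0.75, but 0.20 with the spike-in controls, when 0 were called in either list), led by Kap at -1.47 and Miox at -1.23. With a block for slide row 2 endothelial and 1 proximal tubule marker were called lower, and not Kdr, Kap or Miox. The part of any of these cell types in the values of the 9 genes was not tested.

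**Figure D4:**
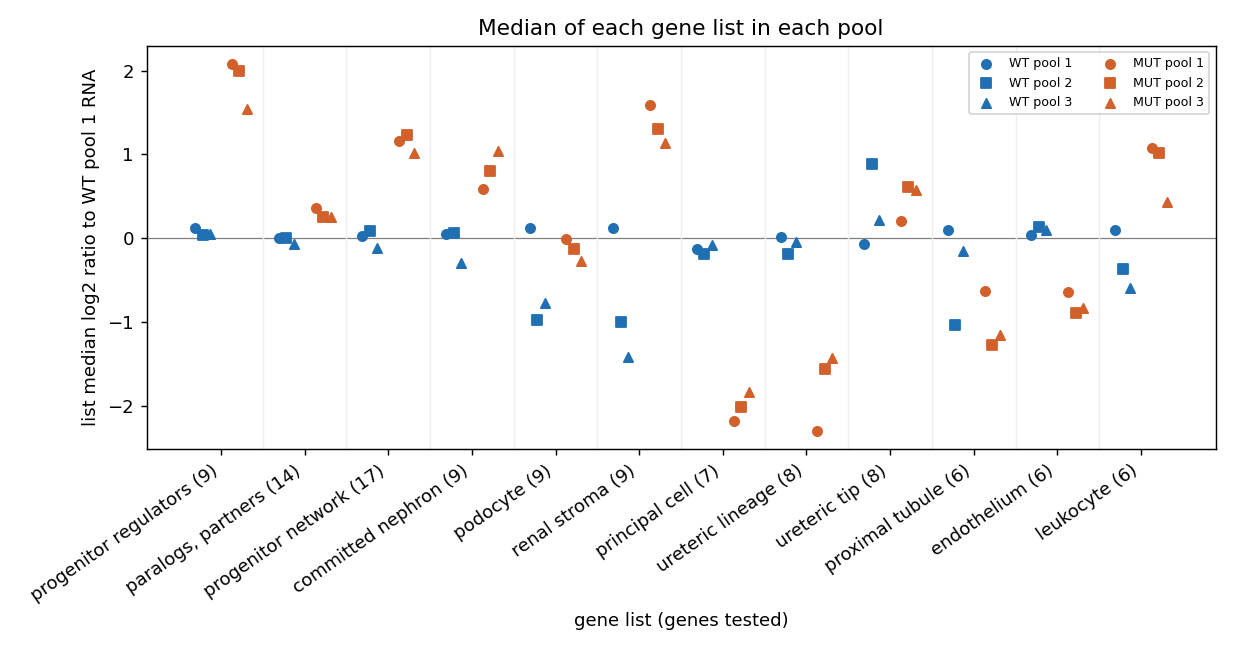
Median log2 ratio to WT pool 1 RNA (y axis) of each gene list (x axis, with the number of genes tested) in WT pools (blue) and MUT pools (orange). The 9 regulators and the renal stroma list sit highest in MUT pools, the principal cell and ureteric lineage lists lowest, and the WT pools spread most in the podocyte, renal stroma, ureteric tip and proximal tubule lists.

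**Figure D5:**
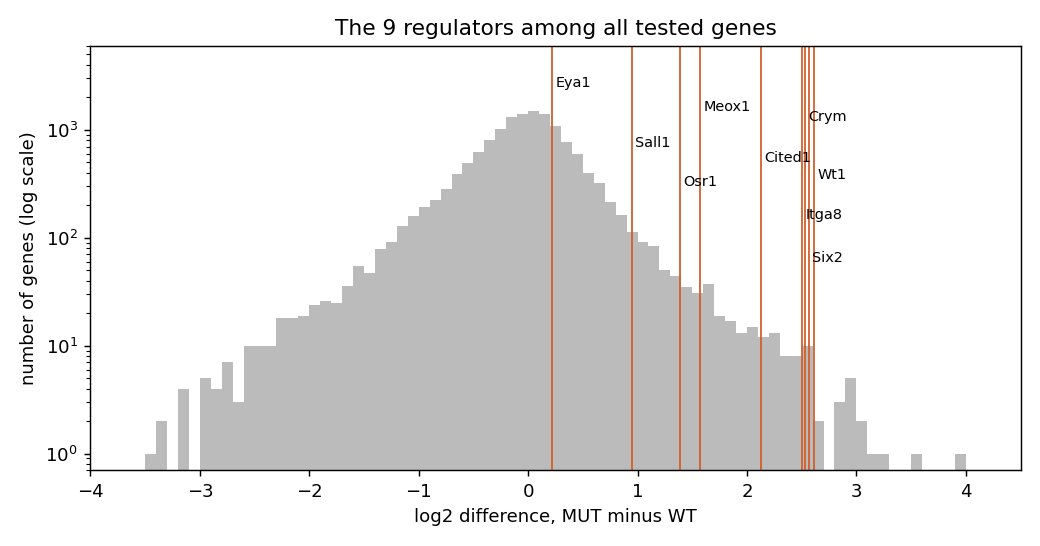
Number of tested genes (y axis, log scale) by log2 difference of MUT minus WT pools (x axis), with lines at the 9 regulators. Eya1 lies inside the bulk of genes, and Cited1, Itga8, Crym, Six2 and Wt1 lie between 2.13 and 2.61 in the upper tail.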

How the data were processed

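RNA of 6 pools was measured on Agilent two-colour arrays, with 0.5 µg of total RNA per labelling reaction. The deposited scanner files hold median spot intensity and local background per channel, processed intensity, and a log10 ratio, per the file headers. The submitters' processing notes name Agilent Feature Extraction, version 10.7.3.1. The deposited value table holds that log10 ratio, rounded. From these, log2 ratios of Cy5 over Cy3 were computed with limma 3.58.1 in R 4.3.3, after normexp background correction (offset 50) and loess within arrays. Control spots had no weight in the loess. Outlier spots took part in it and were left out when the spots of a probe were averaged. Tests covered the 29003 probes whose Cy5 signal was well above background in every pool of at least 1 group. MUT was compared with WT by lmFit and eBayes over all 6 arrays, with Benjamini-Hochberg adjustment over all tested probes. The fit was tested on simulated data. A gene's value is that of its brightest tested probe, named through RefSeq accessions. The array's build (mm9) differs from that of the tables (GRCm38.p6), and coordinates are given for promoters only. The number of arrays limits the precision. Labels give pools as biological replicates. Alternatives covered background correction, normalization, filter, deposited table, Cy5 alone, blocks, variance model, array weights, probe choice and each pool left out. The members and lists were chosen with earlier results of these data known. The text names each member, the called list genes with the 4 smallest p, uncalled ones where under 6, and in the cell marker lists the 2 with the largest change, apart from a few genes that are not reported here.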

Additional observations from a re-analysis of the deposited data

How the results depend on the processing

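All 9 regulators stayed above 0 in MUT pools under all 20 alternatives. The number called higher was 8, except 4 with a block for slide row and 9 with the spike-in controls. Their median change, 2.13 as reported, was 2.61 with the processed signals, 2.61 with the deposited value table, 2.52 with median centring, 2.55 with Cy5 alone, 3.07 with the spike-in controls and 1.59 with a block for slide row. It ran from 1.88 to 2.57 when 1 pool was left out. Less the median of all genes, it ran from 1.62 to 2.61 over all alternatives. The share of called probes that were higher in MUT was 44.2% as reported, 77.2% with median centring, which moved the median of all genes to 0.25, and 98.9% with the spike-in controls, which moved it to 0.93. The slide row block has fewer residual degrees of freedom and 1 WT sample in the row shared with MUT pools. The p-values with the spike-in controls followed the size of the change and not each gene's own spread between pools.

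With pool number as a replicate block 8 regulators were called, their median was 2.13, and no call among them changed. Deviations of same-numbered pools correlated at 0.14, 0.07 and 0.20, so the numbers were not taken as pairs, although all 6 pools correlated best with their own number.

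Of the other lists, the endothelium median turned to 0.033 and the proximal tubule median to 0.20 with the spike-in controls. The podocyte median, 0.16, turned to -0.37 with the row block and -0.017 without WT pool 2, and was 0.23 without WT pool 1, 0.37 with median centring and 1.11 with the spike-in controls. The ureteric tip median, -0.02, turned to 0.20 with median centring, 0.93 with the spike-in controls, 0.53 with the row block, 0.067 with array weights, 0.30 without WT pool 2 and 0.039 without MUT pool 1, and was -0.30 without WT pool 1. The cause of these turns was not tested. Signals near background limit Osr1 and the dimmer Six2 probe.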
